A study of Rattus norvegicus with 6 samples.

Results

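The miR-15/16 family is a group of miRNAs whose guide strands begin with nearly the same bases, and 6 of its rat strands were followed here: rno-miR-15b-5p, rno-miR-16-5p, rno-miR-195-5p, rno-miR-497-5p, rno-miR-322-5p and rno-miR-503-5p (named below without the species prefix). They were chosen by name from the 775 miRNAs counted in rat brain, and all 6 had at least 10 counts in total and were among the 454 miRNAs tested. The 3 libraries of the 2VO group came from rats with both common carotid arteries ligated (2-vessel occlusion, 2VO), a model of vascular dementia. These rats received the 0.5% CMC-Na vehicle at 5 mL/kg for 4 weeks. The 3 libraries of the 2VO+tilianin group came from rats with the same ligation that were given tilianin, a flavonoid glycoside, at 40 mg/kg per day in that vehicle by gastric tube over the same time. The study used male Sprague-Dawley rats, 7 weeks old when bought. All 6 libraries carry the ligation, so that differences from sham-operated rats were not analysed here. The methods of the study call the sequenced tissue brain and its legend cortical tissue, and they do not say whether a library is 1 rat. P-values therefore measure the spread between these libraries, which may be partly technical.

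A miRNA guides an Argonaute protein to messenger RNAs that pair with its seed, the bases from position 2 to 8 at its 5′ end, and lowers their translation and stability. The miR-15/16 family is known as a brake on the cell cycle and on cell survival, with cyclins D1 and E1 and the anti-apoptotic gene Bcl2 among its best-known targets. Its members are made from several small clusters: miR-15b with miR-16 inside the gene of the condensin subunit Smc4, miR-497 with miR-195, and miR-322 (the rodent counterpart of human miR-424) with miR-503. miR-16 is also abundant in red blood cells, and miR-195 and miR-497 are known for the withdrawal of muscle cells from the cell cycle.

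The mature sequences show what the members share and where miR-503-5p departs. They are given 5′ to 3′ from RefSeq (GRCr8 build), which held a sequence for all 6 members, with bases 2 to 8 in capitals.
miR-15b-5p: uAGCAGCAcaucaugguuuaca
miR-16-5p: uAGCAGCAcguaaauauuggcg
miR-195-5p: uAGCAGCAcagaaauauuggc
miR-497-5p: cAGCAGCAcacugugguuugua
miR-322-5p: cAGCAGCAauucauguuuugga
miR-503-5p: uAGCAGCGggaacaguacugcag
With positions counted from the 5′ end and miR-16-5p as reference, miR-503-5p carries A8G, so it shares bases 2 to 7 with the family and not the full seed. Of the 693 mature rat miRNAs in the RefSeq table, the 5 other members alone had the bases AGCAGCA at positions 2 to 8 (0.722%), and these with miR-503-5p were the 6 with AGCAGC at positions 2 to 7 (0.866%). Only 689 of the 775 listed miRNAs had a sequence there, so the rest could not be searched for these bases. miR-15a-5p, a listed strand that bears the family's name, was not among the 6 found, so these 6 may not be all rat strands with the shared bases. miR-16-5p and miR-195-5p differed at 2 of 21 compared bases, G10A and U11G, so that a counting program tolerant of mismatches could divide reads between them. The other pairs of members differed at 6 to 12 bases. The bases outside the seed followed the pairs unevenly: miR-15b-5p and miR-497-5p, from different clusters, were identical at 16 of 22 bases, and miR-15b-5p and its neighbour miR-16-5p at 14 of 22.

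The libraries held 7428890 to 13198776 counts, and 3 counts, the most that a count of 0 allows, corresponded to between 0.232 and 0.462 CPM (a count relative to the TMM-scaled total of its library, TMM being the scaling used by edgeR). That limit and the intervals of count shares and ratios given here cover counting error only. miR-124-3p, which defines neurons, stood at 55804 to 98573 CPM, as brain tissue would have. Tilianin-treated replicate 2 stood apart from the other libraries: its Spearman correlations with them over the tested miRNAs were 0.936 to 0.957, against 0.983 to 0.992 among the other 5. In this library the 2 Hox-cluster miRNAs of a marker list summed to 21660 CPM (89.8 to 489 CPM in the others), the 3 choroid plexus miRNAs to 1074 CPM (120 to 348 CPM; miR-204-5p alone gave 1064 CPM, and miR-449a-5p, at 0.924 CPM, lay within the range of the other libraries), the 3 muscle miRNAs to 415 CPM (77.3 to 163 CPM) and the 4 listed red blood cell miRNAs to 881 CPM (155 to 406 CPM), whereas the 4 neuronal miRNAs had their lowest sum, 83430 CPM (126500 to 159300 CPM). miR-1-3p of the muscle list had 1 count in total, so that sum rested on miR-133a-3p and miR-206-3p. The row of miR-1b, which was not on the list, stood at 1969 CPM in this library and at 158 to 325 CPM in the others. A low count of a listed row thus need not mean that the miRNA was scarce. As tilianin-treated replicate 2 stood apart, the fold changes, sums and shares of the members are also given without it. Some marker sums also differed between the groups without overlap, whereas those of the endothelial, neuronal, oligodendrocyte, muscle, choroid plexus and liver lists overlapped. The red blood cell sum was 155 to 199 CPM for 2VO and 338 to 881 CPM after tilianin, the Hox-cluster sum 89.8 to 149 and 321 to 21660 CPM, the sum of 3 leukocyte miRNAs 326 to 456 and 457 to 746 CPM, and that of 3 smooth muscle and mesenchymal miRNAs 2.16 to 4.14 and 4.78 to 7.69 CPM. Among the tested miRNAs of the lists whose sums separated, the groups were separate for miR-486, miR-223-3p, miR-214-3p and both Hox-cluster miRNAs. They overlapped for miR-144-3p, miR-142-3p, miR-142-5p, miR-143-3p and miR-145-5p, so some of these sums separated through a single miRNA. Over all 454 tested miRNAs the groups were separate for 44 (9.69%), 25 of them higher after tilianin (5.51%). The leukocyte sum and that of 3 oligodendrocyte miRNAs (17.5 to 50.4 CPM over the libraries) were highest in treated replicate 2. The oligodendrocyte list held miR-219a-5p, with 1 count in total, and left out the row of miR-219b, at 260 to 1368 CPM. The part of these other cells and tissues in the results was not tested.

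The 6 members made up a small part of the brain miRNAs and spanned a wide range of levels. Together they held 0.411% (95% Wilson interval 0.406 to 0.415%, 2VO replicate 3) to 0.618% (0.612 to 0.624%, tilianin-treated replicate 2) of all counts. miR-16-5p was the most abundant, ranking 34 by mean CPM among all listed miRNAs, and miR-195-5p ranked 53. miR-15b-5p, miR-497-5p, miR-322-5p and miR-503-5p followed at ranks 145, 160, 213 and 274. The order miR-16-5p, miR-195-5p, miR-15b-5p, miR-497-5p, miR-322-5p, miR-503-5p was the same in 6 of 6 libraries. Of neighbours in this order, only miR-15b-5p and miR-497-5p had ranges that overlapped across libraries, although miR-15b-5p was above miR-497-5p within each of the 6 libraries. The strands are 21 to 23 bases long, but adapter ligation is known to depend on sequence, so the order of levels is one of reads. Some listed rows had the same counts in every library, such as let-7a-1-3p and let-7c-2-3p, so the library totals may hold some reads more than once. Of the members, 0 of 6 had a row identical to another in all libraries.

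**Figure D1:**
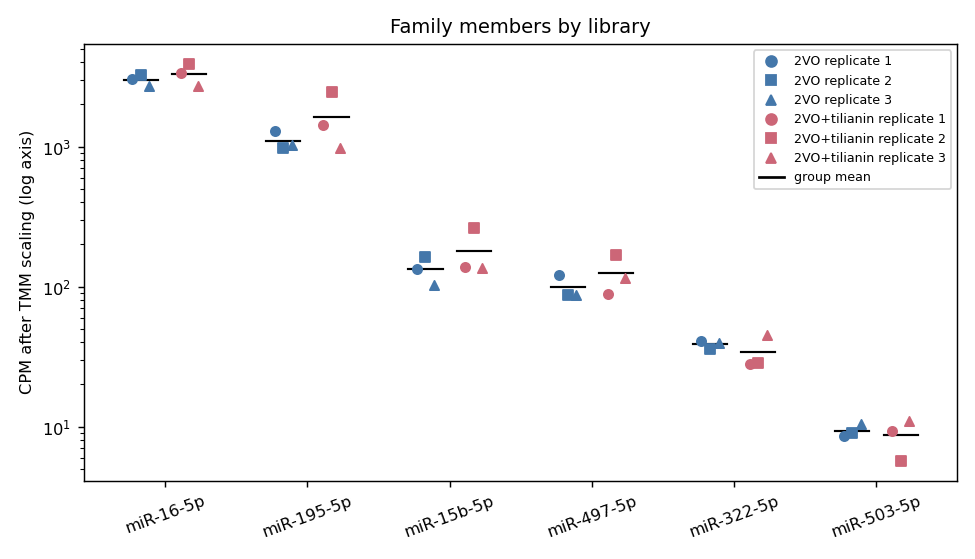
CPM after TMM scaling (log axis) of the 6 members in each of the 3 2VO and 3 tilianin-treated 2VO libraries, with a line at each group mean. Tilianin-treated replicate 2 (red squares) is the highest library for miR-16-5p, miR-195-5p, miR-15b-5p and miR-497-5p, and the lowest for miR-503-5p.

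No member met the criterion used by the study, an unadjusted p below 0.05 with an absolute log2 fold change above 1. Of the 6 members, 0 passed with edgeR's quasi-likelihood test, with DESeq2's Wald test or with limma-voom, and 0 had an unadjusted p under 0.05 by any of the 3. Exact permutation tests of log2(CPM + 1), two-sided, in which 3 libraries against 3 cannot go below p = 0.1, gave p = 0.4 for miR-16-5p, miR-15b-5p, miR-195-5p and miR-322-5p, 0.5 for miR-497-5p and 0.9 for miR-503-5p. Over all 454 miRNAs the criterion was met by 26 (5.73%) with edgeR, 21 of them higher after tilianin (4.63%) and 5 lower (1.10%), and 33 (7.27%) had an unadjusted p under 0.05. Benjamini-Hochberg adjustment over the 454 left 0 (0.00%) below 0.05 with edgeR, 0 with limma-voom and 3 with DESeq2. Of the members, 0 had groups that did not overlap, against 44 of the 454 (9.69%), 25 of them higher after tilianin (5.51%). The median log2 fold change of the members was 0.24 and that of all tested miRNAs -0.034, with 4 of 6 members above 0 against 46.7% of all tested. Leaving out treated replicate 2 brought the median of the members to 0.052, with 5 of 6 above 0, and that of the miRNAs then tested to 0.0096, with 51.9% above 0.

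**Figure D2:**
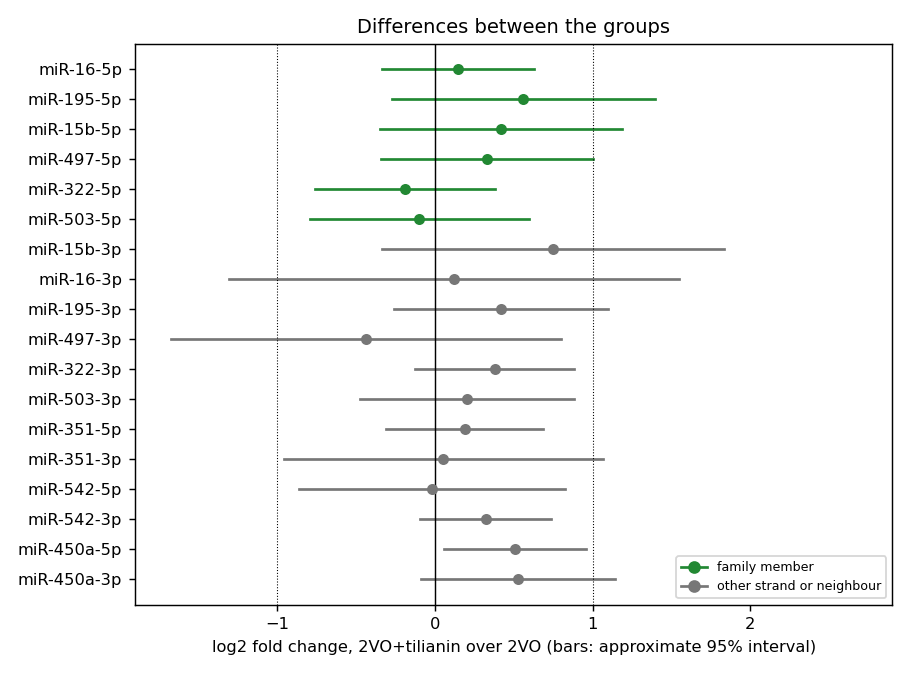
Log2 fold change of tilianin-treated 2VO over 2VO for the 6 members (green) and 12 other strands and neighbouring miRNAs (grey), from edgeR, with bars for the approximate 95% interval and dotted lines at the fold change threshold of the criterion. The intervals of the 6 members all include 0, and the interval of miR-450a-5p runs from 0.056 to 0.96.

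Among the members of the Smc4 cluster, miR-16-5p, the main read source of the family, stood at 3050, 3233 and 2690 CPM in the 2VO group (replicates 1, 2 and 3, in this order here and below) and at 3341, 3897 and 2720 CPM after tilianin. Treated replicates 1 and 2 lay above all the 2VO libraries and replicate 3 inside their range. The mean was 2991 ± 276 CPM for 2VO and 3319 ± 589 CPM after tilianin (SD, n = 3 each). The log2 ratio of tilianin over 2VO (log2 fold change) was 0.15 (standard error 0.204, edgeR adjusted p = 0.861), and its 95% interval ran from 0.795-fold to 1.55-fold. The sequencing was deep for this strand (20794 to 41893 counts), so the interval is set by the spread between libraries rather than by counting.

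miR-15b-5p, from the same Smc4 intron cluster, gave 134, 164 and 103 CPM for 2VO against 139, 263 and 136 CPM after tilianin. Treated replicates 1 and 3 lay within the 2VO range and replicate 2 lay above it. Its log2 fold change was 0.42 (standard error 0.326, edgeR adjusted p = 0.790). Without treated replicate 2 the fold change of miR-15b-5p was 0.045 and that of miR-16-5p 0.033. The count ratio of miR-16-5p to miR-15b-5p was 22.9 ± 3.16 for 2VO and 19.6 ± 4.65 after tilianin (SD, n = 3 each), and it was lowest in treated replicate 2 (14.8).

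miR-195-5p had the largest difference of the 6 members. Its level was 1291, 979 and 1018 CPM for 2VO and 1417, 2466 and 971 CPM after tilianin. Treated replicate 3 was the lowest of all 6 libraries and replicates 1 and 2 the highest, so the groups overlapped. The group means were 1096 ± 170 CPM and 1618 ± 767 CPM (SD, n = 3 each), with a log2 fold change of 0.56 (standard error 0.353, edgeR adjusted p = 0.746) and an interval from 0.830-fold to 2.63-fold. Single libraries decided this value: the log2 fold change was 0.14 without treated replicate 2, and 0.82 without treated replicate 3, where it passed the unadjusted threshold in edgeR but not after adjustment (adjusted p = 0.348).

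miR-497-5p, transcribed with miR-195, measured 121, 87.2 and 87.5 CPM for 2VO and 88.1, 168 and 116 CPM after tilianin. As with miR-195-5p, treated replicate 2 was highest, and another treated library (replicate 1) was close to the lowest 2VO libraries. The log2 fold change of miR-497-5p was 0.33 (standard error 0.286, edgeR adjusted p = 0.816), and 0.058 without treated replicate 2. The count ratio of miR-195-5p to miR-497-5p was 11.2 ± 0.491 for 2VO and 13.0 ± 4.10 after tilianin (SD, n = 3 each), so the pair kept a narrow ratio in the 2VO libraries and a wide one in the treated libraries, from 8.38 in replicate 3 to 16.1 in replicate 1.

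miR-322-5p reached 41.0, 35.8 and 39.2 CPM for 2VO, against 28.1, 28.3 and 45.3 CPM after tilianin. Treated replicates 1 and 2 lay below every 2VO library and replicate 3 above every one. The log2 fold change was -0.19 (standard error 0.241, edgeR adjusted p = 0.861). It was -0.46 if treated replicate 3 was left out (adjusted p = 0.404), -0.063 without treated replicate 2 and -0.052 without treated replicate 1.

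miR-503-5p, the member without the full seed, was the scarcest, with 37 to 116 counts per library. Its level was 8.50, 8.95 and 10.5 CPM for 2VO and 9.34, 5.70 and 11.0 CPM after tilianin, where replicate 2 was the lowest of the 6 libraries and replicate 3 the highest. The log2 fold change was -0.097 (standard error 0.294, edgeR adjusted p = 0.927), with an interval from 0.578-fold to 1.51-fold, and it turned to 0.15 without treated replicate 2. The count ratio of miR-322-5p to miR-503-5p was 4.19 ± 0.564 for 2VO and 4.04 ± 0.984 after tilianin (SD, n = 3 each).

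The 6 members thus divided in tilianin-treated replicate 2, with miR-322-5p and miR-503-5p apart from the other 4. Relative to the median of the other 5 libraries, this library was at 2.42 times the level for miR-195-5p, 1.94 times for miR-15b-5p, 1.91 times for miR-497-5p and 1.28 times for miR-16-5p, and at 0.723 and 0.610 times for miR-322-5p and miR-503-5p. It was the highest library for 4 of the 6 members, and also for 150 of the 454 tested miRNAs (33.0%), and the lowest for 151 (33.3%), so that a place at either end was common in this library. Treated replicate 1 showed part of this pattern. It was above the 2VO range for miR-16-5p and miR-195-5p and the lowest of the 6 libraries for miR-322-5p (28.1 CPM). miR-15b-5p (139 CPM), miR-497-5p (88.1 CPM) and miR-503-5p lay within the 2VO range there. Treated replicate 3 was above the 2VO range for miR-322-5p and miR-503-5p. In treated replicate 2, other strands made from beside miR-322 and miR-503 did not all lie below the median of the other 5 libraries. miR-322-3p stood at 0.963 times and miR-503-3p at 0.862 times, but miR-450a-5p at 1.45 times and miR-542-3p at 1.31 times.

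**Figure D3:**
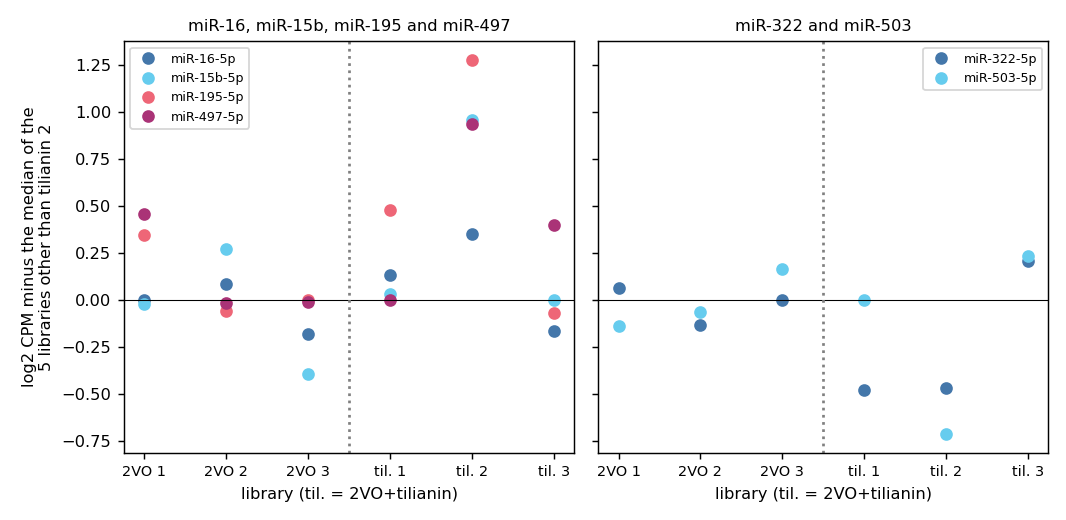
Log2 CPM of each member in each library minus its median over the 5 libraries other than tilianin-treated replicate 2, with the miR-16, miR-15b, miR-195 and miR-497 strands on the left and the miR-322 and miR-503 strands on the right. In tilianin-treated replicate 2 the 4 strands on the left lie above 0, up to 1.28 for miR-195-5p, and both strands on the right lie below 0, down to -0.71 for miR-503-5p.

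As a seed sum, the 6 members reached 4646, 4508 and 3948 CPM for 2VO and 5022, 6829 and 3999 CPM after tilianin. Group means were 4367 ± 370 and 5283 ± 1433 CPM (SD, n = 3 each), and the sum in treated replicate 3 lay within the 2VO range. The difference of the group means on the log2 scale was 0.24, 0.041 without treated replicate 2 and 0.43 without treated replicate 3; no test was made of the sum. miR-16-5p held 68.5 ± 3.06% of the family counts for 2VO and 63.9 ± 5.93% after tilianin, and miR-195-5p 25.1 ± 3.10% and 29.5 ± 6.02% (SD, n = 3 each). The difference for miR-16-5p was -4.64 percentage points, -1.24 without treated replicate 2 and up to -6.71 without treated replicate 3, and that for miR-195-5p was 4.45, 1.16 and 7.07 points. In treated replicate 2 the share of miR-16-5p was 57.1% (95% Wilson interval 56.6 to 57.5%) and that of miR-195-5p was 36.1% (35.7 to 36.6%). Leaving out miR-503-5p changed the sum by little, since this member held between 0.0834% (0.0606 to 0.115%) and 0.275% (0.224 to 0.338%) of the family counts. The sum of the 5 members with the full seed again differed by 0.24, and the sum of the 5 members other than miR-16-5p by 0.43 (0.10 without treated replicate 2, 0.70 without treated replicate 3).

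The strands from the other arm of each hairpin were compared with the members. A hairpin usually leaves 1 lasting strand, and for miR-16, miR-195, miR-497 and miR-15b this was the 5p strand in 6 of 6 libraries. The ratio of 5p to 3p counts was 1923 to 7427 for miR-16, on 3 to 20 counts of miR-16-3p, 166 to 282 for miR-195, 80.7 to 364 for miR-497, on 3 to 14 counts of miR-497-3p, and 18.4 to 30.7 for miR-15b. For miR-503 the strands were nearly level, with ratios of 0.822 to 1.66, and the exact 95% interval excluded 1 only in 2VO replicate 1 (1.14 to 2.44).

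For miR-322 the order was the other way, and the 3p strand was the major one in 6 of 6 libraries. It is shown because its reads outnumber those of the member from the same hairpin, with bases 2 to 8 in capitals.
miR-322-3p: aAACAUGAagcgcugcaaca
These bases are not those of the family. miR-322-3p gave 258, 298 and 362 CPM for 2VO and 447, 349 and 398 CPM after tilianin. Treated replicates 1 and 3 were above every 2VO library and replicate 2 within their range. Its log2 fold change was 0.38 (standard error 0.213, edgeR adjusted p = 0.746), rising to 0.49 if treated replicate 2 was left out, where it passed the unadjusted threshold in edgeR but not after adjustment (adjusted p = 0.997). The ratio of miR-322-5p to miR-322-3p counts was 0.159 (exact 95% interval 0.142 to 0.177), 0.120 (0.109 to 0.133) and 0.108 (0.0958 to 0.122) for 2VO. It was 0.0630 (0.0553 to 0.0714), 0.0812 (0.0695 to 0.0944) and 0.114 (0.102 to 0.127) after tilianin. The ratio was thus lower than in every 2VO library in treated replicates 1 and 2 and within the 2VO range in replicate 3, and the group difference of -0.043 ran from -0.057 to -0.028 with single libraries left out, nearest to 0 without 2VO replicate 1, and was -0.041 without treated replicate 2.

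**Figure D4:**
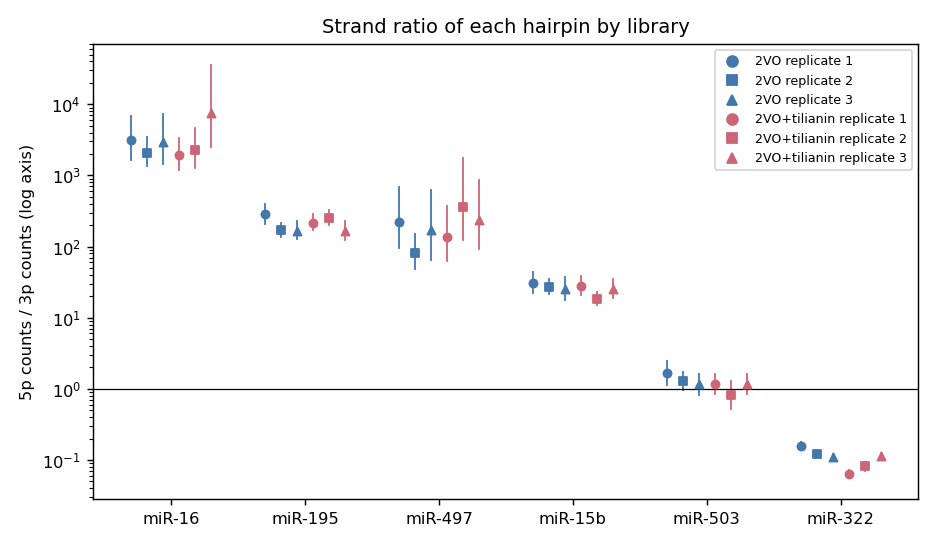
Ratio of 5p to 3p counts (log axis) for the 6 hairpins in each 2VO (blue) and tilianin-treated 2VO (red) library, with bars for the exact 95% counting interval and a line at equal counts. The ratios of miR-322 lie between 0.0630 and 0.159, those of miR-503 around 1, and those of miR-15b, miR-195, miR-497 and miR-16 from 18.4 upwards.

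Among the other strands and neighbours of the family, 14 were looked for and all were listed, of which 12 had at least 10 counts. Of these 12, 0 met the criterion with edgeR, 1 had an unadjusted p under 0.05 (background 7.27%), and 2 had groups that did not overlap, both higher after tilianin (background 5.51%). Of the 12, 10 had a log2 fold change above 0 (background 46.7%), with a median of 0.26 (-0.034 over all tested). Several of them come from the same hairpin or cluster, so they are not independent. Without treated replicate 2, miR-15b-3p fell to 0.096, miR-16-3p to -0.11 and miR-351-3p to -0.024. Others rose, among them miR-322-3p to 0.49, miR-503-3p to 0.33 and miR-351-5p to 0.29. miR-15a, which shares a cluster with a second miR-16 gene in other mammals, was nearly absent from the table: miR-15a-5p had 0 to 2 counts per library and miR-15a-3p 0 in every library.

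The miR-322 and miR-503 genes lie beside those of miR-351, miR-542 and miR-450a, and 2 of the strands looked for there had separated groups. miR-450a-5p gave 275, 269 and 315 CPM for 2VO and 358, 456 and 407 CPM after tilianin, so that all 3 treated libraries were above all 2VO libraries. The log2 fold change of miR-450a-5p was 0.51 (standard error 0.191, edgeR adjusted p = 0.637), under the fold change threshold, and the exact permutation test gave p = 0.1, the smallest it can give. It is the neighbour that passed an unadjusted p of 0.05, and it no longer did with library totals (log2 fold change 0.44), with the replicate block (0.50), or without 2VO replicate 1 (0.48), 2VO replicate 2 (0.51) or treated replicate 3 (0.50). Its near-copy miR-450b-5p, added after its values were seen, has 1 different base among 21 (G21A), and had similar counts in every library. These sequences are shown because reads cannot be assigned to either without their last bases, with bases 2 to 8 in capitals.
miR-450a-5p: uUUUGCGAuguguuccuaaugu
miR-450b-5p: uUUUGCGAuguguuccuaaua
For miR-450b-5p the log2 difference was 0.41 (standard error 0.184, edgeR adjusted p = 0.652). Both rows may hold some of the same reads, so miR-450b-5p is not taken as a separate neighbour. miR-542-3p, the other neighbour with separated groups, measured 44.8, 42.2 and 43.1 CPM for 2VO and 46.6, 58.7 and 57.5 CPM after tilianin, a log2 difference of 0.32 (standard error 0.176, edgeR adjusted p = 0.746). miR-351-5p overlapped, with 277, 372 and 338 CPM against 437, 332 and 355 CPM and a log2 difference of 0.19 (standard error 0.212). The scarce miR-542-5p (19 to 44 counts) had a log2 difference of -0.020. In treated replicate 2 it stood at 0.767 times the median of the other libraries, and miR-351-5p at 0.936 times. By contrast, miR-450a-3p stood there at 1.75 times, miR-450a-5p at 1.45, miR-450b-5p at 1.33, miR-542-3p at 1.31 and miR-351-3p at 1.18 times.

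miR-103-3p and miR-107-3p have a seed shifted by 1 base, since their bases 1 to 7 are the bases 2 to 8 of the family, and they belong to a separate family linked to insulin signalling and metabolism. miR-103-3p was as abundant as miR-16-5p, with 3429 ± 107 CPM for 2VO and 3102 ± 583 CPM after tilianin (SD, n = 3 each). Its log2 fold change was -0.14, as was that of miR-107-3p, and the adjusted p from edgeR was 0.861 for both. In contrast to miR-16-5p, miR-103-3p was lowest in tilianin-treated replicate 2 (2638 CPM).

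By the root mean square difference of centred log2(CPM + 1) over the 6 libraries, the miRNAs most like the family sum, among 264 non-members with a mean of at least 10 CPM, were let-7i-5p (0.0853), miR-423-5p (0.0987) and let-7d-3p (0.101). The closest single miRNA was let-7i-5p for miR-16-5p (0.0800), miR-99a-5p for miR-15b-5p (0.110), miR-26b-5p for miR-195-5p (0.182), miR-134-5p for miR-497-5p (0.143), miR-341 for miR-322-5p (0.0757) and miR-24-2-5p for miR-503-5p (0.0503). Between members the same measure ran from 0.219, for miR-322-5p with miR-503-5p, to 0.730, for miR-195-5p with miR-503-5p, with 0.261 for miR-15b-5p with miR-16-5p and 0.308 for miR-195-5p with miR-497-5p. The comparison of members with non-members is uneven, as there were 264 of the latter to choose from.

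As miR-16 is rich in red blood cells, their markers are given beside it. miR-451-5p, which defines red blood cells, had 0 to 4 counts per library, and miR-144-5p 0 to 1. miR-144-3p had 2 to 23 counts, and miR-486 stood at 152, 156 and 198 CPM for 2VO and 406, 876 and 338 CPM after tilianin. Of the 4 listed markers, 2 had enough counts to be tested, and 1 of these (miR-486) met the criterion (5.73% of all tested). The endothelial strands miR-126a-3p and miR-126a-5p summed to 5372 to 8553 CPM for 2VO and 6509 to 7203 CPM after tilianin, and neither passed an unadjusted p of 0.05. The highest library was treated replicate 2 for miR-486, as it was for miR-16-5p, and their part in the levels of miR-16-5p was not tested.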

How the data were processed

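Small RNA of 6 rat brain libraries was sequenced from TruSeq Small RNA libraries. The authors deposited raw counts of reads on mature miRNAs, 1 column per library, without normalization. The submitters' processing notes name FastQC 0.11.2, Trimmomatic 0.36, cutadapt 1.14 and DESeq2 1.12.4 without their roles, and the aligner, counting program, miRNA reference and genome build are not given in the sources used here. Columns were matched to samples by the library code in the labels, in which 2VO replicate 3 has the number 4.

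All rows with 10 or more deposited counts over the 6 libraries entered edgeR's quasi-likelihood test after TMM scaling, with the group as the single term. Versions were R 4.3.3, edgeR 4.0.16, DESeq2 1.42.0 and limma 3.58.1. Thresholds were those of the study. Standard errors and 95% intervals are approximate, since they were worked back from each F statistic. P-values were adjusted over all 454 miRNAs. Permutation tests were exact and two-sided. The code was tested on simulated data. Alternatives were DESeq2's size factors, library totals, no filter, filterByExpr, DESeq2's Wald test, limma-voom, a replicate block, and fits without 1 library.

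Members, marker lists and tests were chosen with earlier results of these data known. Named miRNAs were the members, their 3p strands, miR-15a, the neighbours miR-351, miR-542 and miR-450a, any miRNA with the same bases 2 to 7, miR-103-3p and miR-107-3p, the miRNAs nearest in pattern, and marker miRNAs. A liver list (miR-122-5p, 1.42 to 22.3 CPM for 2VO and 0.616 to 2.08 CPM after tilianin) was also checked. Sequences and gene neighbours come from RefSeq's GRCr8 tables, where 689 of the 775 listed miRNAs had a sequence. The build behind the counts is unknown, so coordinates were left out.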

Additional observations from a re-analysis of the deposited data

How the results depend on the processing

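For the members, 0 met the criterion under every alternative run, and 0 to 1 had an unadjusted p under 0.05 when each of the 6 libraries was dropped in turn, the 1 being miR-195-5p without tilianin-treated replicate 3. Over all miRNAs, the criterion was met by 16 with filterByExpr, 9 with limma-voom, 9 to 34 across those 6 fits and 13 with the replicate block. An unadjusted p under 0.05 was reached by 17 with limma-voom, by 9 to 53 in the 6 fits and by 17 with the replicate block, and an adjusted p under 0.05 by 3 with DESeq2's Wald test and 0 to 4 across the 6 fits. The difference of the family sum was 0.041 to 0.43 across the 6 fits.

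Of 36 member values with a library left out, 35 kept their direction; miR-503-5p ran from -0.30 to 0.15. Of the 42 under other settings, all kept it. Scarce neighbours turned: miR-16-3p was -0.14 with limma-voom and -0.19 to 0.55 with a library left out, miR-351-3p -0.016 with library totals and -0.21 to 0.34, miR-542-5p 0.014 with filterByExpr, 0.055 with limma-voom, 0.0020 with DESeq2's Wald test and -0.24 to 0.19, and miR-497-3p -0.61 to 0.052. The cause was not tested. The replicate block changed no call of a member. Its numbers were not taken as a pairing: same-numbered libraries deviated together with correlations of -0.121 (number 1), 0.00917 (number 2) and 0.297 (number 3). With 3 libraries a group the intervals of the members span more than the differences measured, and counts were low for miR-503-5p (37 to 116 per library) and the 4 scarce neighbours.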
